A study of Rattus norvegicus with 10 samples.

Results

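The 7 genes described here belong to the fetal and hypertrophic programme of heart muscle, and were followed in neonatal rat cardiomyocytes exposed to the lipid N-palmitoylglycine. They were chosen by Ensembl rat identifier, and all 7 identifiers of the list were found among the 15584 genes of the deposited count table. The genes are Nppa (ENSRNOG00000008176), Nppb (ENSRNOG00000008141), Myh6 (ENSRNOG00000025757), Myh7 (ENSRNOG00000016983), Acta1 (ENSRNOG00000017786), Actc1 (ENSRNOG00000008536) and Tnnt2 (ENSRNOG00000033734). The table itself carries no symbols, so the pairing of symbol and identifier rests on the list. It could not be checked, since no reference used here held these identifiers. The cells are heart muscle cells isolated from newborn rats. They were exposed for 24 h to the solvent DMSO (5 libraries) or to palmitoylglycine at 1 µM (5 libraries), and the series title connects this lipid with the cation channel TRPC5 and with Brugada syndrome, an inherited arrhythmia disorder. The labels give no genotype, strain or animal. They leave unsaid whether a group's 5 libraries are separate cultures, so every p-value reflects spread among libraries that may be technical.

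Heart muscle contracts when myosin heads of the thick filament pull on actin of the thin filament, under the control of the troponin complex. Around birth the rodent ventricle replaces the slow beta myosin heavy chain (Myh7) with the fast alpha chain (Myh6), and lowers skeletal alpha-actin (Acta1) and ventricular atrial natriuretic peptide (Nppa). In an adult heart under load these fetal forms can return, together with brain natriuretic peptide (Nppb), which is why the group is widely read as a hypertrophy signature. In neonatal cells in culture fetal genes such as Nppa and Myh7 are already active, so a change in them is measured on top of that state.

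The RefSeq promoter windows of 4 genes, the 2 natriuretic peptide genes and the 2 sarcomeric actin genes, are shown from the rat genome build GRCr8. Those of Myh6, Myh7 and Tnnt2 are not shown. Each window runs from 250 bases before to 50 bases after the annotated start of transcription. Capitals mark matches, on either strand, to 4 motifs: the CArG box bound by serum response factor, a GATA-factor site (AGATAA), the M-CAT element bound by TEAD factors (CATTCC), and the TATA box (TATAAA). The windows are at chr5:163711934-163712233, plus strand, for Nppa, at chr5:163699758-163700057, plus strand, for Nppb, at chr19:68784145-68784444, minus strand, for Acta1, and at chr3:121271778-121272077, minus strand, for Actc1.
Nppa: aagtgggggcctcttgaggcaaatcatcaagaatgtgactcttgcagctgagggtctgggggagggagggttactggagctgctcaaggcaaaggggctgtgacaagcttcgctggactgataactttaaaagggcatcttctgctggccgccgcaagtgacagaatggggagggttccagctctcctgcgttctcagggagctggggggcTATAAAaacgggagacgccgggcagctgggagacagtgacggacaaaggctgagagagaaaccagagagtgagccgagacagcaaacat
Nppb: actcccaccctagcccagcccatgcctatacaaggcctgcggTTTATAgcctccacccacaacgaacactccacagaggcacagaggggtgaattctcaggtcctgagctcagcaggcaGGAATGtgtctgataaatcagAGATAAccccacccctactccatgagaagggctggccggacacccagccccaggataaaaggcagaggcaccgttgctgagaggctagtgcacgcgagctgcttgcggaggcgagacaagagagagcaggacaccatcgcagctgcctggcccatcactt
Acta1: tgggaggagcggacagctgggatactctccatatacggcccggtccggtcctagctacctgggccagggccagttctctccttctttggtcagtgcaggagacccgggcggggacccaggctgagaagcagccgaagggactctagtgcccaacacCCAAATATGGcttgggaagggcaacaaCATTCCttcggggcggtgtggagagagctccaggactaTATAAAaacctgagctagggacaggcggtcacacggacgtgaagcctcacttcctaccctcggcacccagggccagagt
Actc1: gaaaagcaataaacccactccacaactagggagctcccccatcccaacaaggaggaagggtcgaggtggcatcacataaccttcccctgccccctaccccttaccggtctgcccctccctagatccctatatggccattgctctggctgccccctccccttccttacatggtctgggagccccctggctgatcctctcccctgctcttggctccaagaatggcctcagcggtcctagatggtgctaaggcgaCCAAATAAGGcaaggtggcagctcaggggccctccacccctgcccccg

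Acta1 held a CArG box from −94 to −85 relative to the start, an M-CAT element from −67 to −62 and a TATA box from −29 to −24. In Actc1 a CArG box lay just past the annotated start, from 3 to 12. Nppa held a TATA box from −39 to −34. Nppb held a GATA site from −110 to −105 and, on the opposite strand, an M-CAT element from −131 to −126 and a TATA box from −208 to −203. No 2 of these matches overlapped. Among the 8 windows RefSeq gives for the 7 genes (Tnnt2 has 2), a CArG box was found in 2, against 1.64% of all 33469 rat promoter windows of this length. A GATA site was found in 2 of 8 windows against 11.6% of all, an M-CAT element in 4 against 14.2%, and a TATA box in 3 against 14.2%. The Myh7 window and the second Tnnt2 window held no match to any of the 4 motifs. The motifs were picked with these windows in view, so the counts are descriptions. In the same annotation Nppb and Nppa are neighbouring protein-coding genes, as are Myh6 and Myh7. Myh6, Myh7 and Actc1 each overlap at least 1 other annotated gene (for Myh6 and Actc1 a long non-coding RNA, for Myh7 also the protein-coding LOC120096984). The labels describe no step that keeps the strand, so reads of overlapping genes cannot be assigned with certainty.

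Library totals ranged from 56580073 to 78946785 reads. The libraries did not form a single cloud within each treatment. On the first principal component, computed here without the 7 genes and holding 32.3% of the variance, libraries 1 to 3 of both treatments lay between −34.0 and −14.8 and libraries 4 and 5 of both treatments between 32.7 and 43.4. The labels name no batch that follows this division. These 2 subsets cross the treatment evenly, and the treatments are compared over all 10 libraries and with the subsets taken into account. Read levels are in CPM, which scales reads to a common library total, here with the TMM factors of edgeR. Counting error was small, since the lowest count was 2488 reads for Acta1 (a counting error of 2.00%) and 65750 reads or more for the other 6 genes.

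None of the 7 genes passed the test between palmitoylglycine and DMSO. All 7 passed the filter on low counts. In edgeR's quasi-likelihood test over 15321 genes, 0 of the 7 had a Benjamini-Hochberg adjusted p under 0.05 (0% of all genes tested), and 0 of the 7 had an unadjusted p under 0.05 (10.3% of all genes tested). DESeq2 also called 0 of the 7 (0.879% of all genes tested), and limma-voom called 0 of the 7 (0% of all genes tested). The 2 treatments overlapped in all 7 genes, and 2.05% of all genes tested showed no overlap. The estimate was above 0 for 5 genes and below 0 for 2, with a median log2 fold change of 0.14 (all genes −0.00, with 49.8% above 0).

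**Figure D1:**
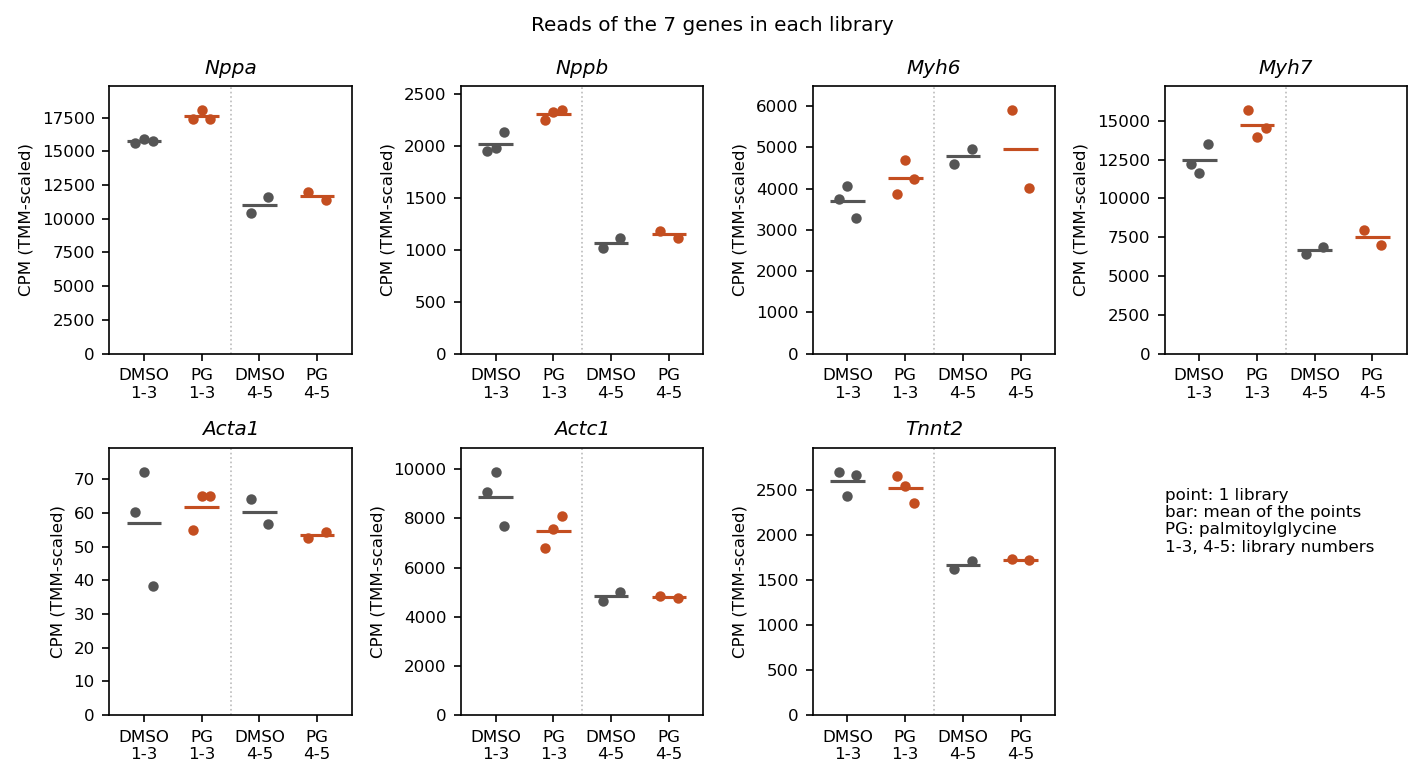
TMM-scaled CPM of each gene (vertical axis, linear from 0) in the 10 libraries, split by treatment (DMSO grey, palmitoylglycine orange) and by library number (1 to 3 left of the dotted line, 4 and 5 right of it). Points are libraries and bars are means; libraries 4 and 5 lie below libraries 1 to 3 in Nppa, Nppb, Myh7, Actc1 and Tnnt2, where the mean of libraries 1 to 3 is 1.47 to 1.96 times that of libraries 4 and 5.

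Nppa encodes atrial natriuretic peptide, a hormone that promotes sodium excretion and vessel relaxation. Its level in the 5 DMSO libraries, in the order 1 to 5, was 15603, 15911, 15758, 10440 and 11584 CPM. In the 5 palmitoylglycine libraries it was 17440, 18050, 17408, 11970 and 11384 CPM. Within libraries 1 to 3 all palmitoylglycine values lay above all DMSO values, whereas in libraries 4 and 5 the treatments overlapped. The means were 15250 ± 3279 (SD, n = 5) CPM with palmitoylglycine and 13859 ± 2633 (SD, n = 5) CPM with DMSO. The log2 fold change came to 0.14 ± 0.18 (SE, edgeR adjusted p = 0.845).

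Nppb encodes brain natriuretic peptide, the ventricular hormone whose fragment is measured in the clinic as a sign of heart failure. Across DMSO libraries 1 to 5 it stood at 1949, 1984, 2131, 1017 and 1114 CPM. Across palmitoylglycine libraries 1 to 5 it stood at 2246, 2330, 2342, 1182 and 1111 CPM. As for Nppa, the treatments were apart in libraries 1 to 3 and overlapped in libraries 4 and 5. On the log2 scale the difference was 0.17 ± 0.29 (SE, edgeR adjusted p = 0.892), an estimate smaller than its error.

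Myh7, the slow beta myosin heavy chain, had the largest estimate of the 7. DMSO libraries 1 to 5 gave 12202, 11647, 13476, 6405 and 6895 CPM. Palmitoylglycine libraries 1 to 5 gave 15673, 13936, 14560, 7991 and 7024 CPM. Of the 7 genes it alone had every palmitoylglycine value above every DMSO value in both subsets, as did 3.63% of all genes tested. Over the 10 libraries the means were 11837 ± 4015 (SD, n = 5) CPM with palmitoylglycine and 10125 ± 3245 (SD, n = 5) CPM with DMSO, a log2 fold change of 0.23 ± 0.28 (SE, edgeR adjusted p = 0.843).

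Myh6, the fast alpha myosin heavy chain of the mature rodent ventricle, was not lower with palmitoylglycine in its mean. The DMSO libraries held 3749, 4069, 3284, 4593 and 4974 CPM in the order 1 to 5. The palmitoylglycine libraries held 3876, 4705, 4225, 5900 and 4019 CPM. Palmitoylglycine library 4 was the highest of all 10 and library 5 lower than both DMSO libraries of its subset, so the treatments overlapped in both subsets. Its log2 fold change of 0.14 ± 0.14 (SE, edgeR adjusted p = 0.792) became 0.03 without palmitoylglycine library 4.

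Acta1, skeletal alpha-actin, the sarcomeric actin that is prominent in fetal and overloaded hearts, had few reads. It stood at 60.3, 72.3, 38.3, 64.1 and 56.8 CPM in DMSO libraries 1 to 5. With palmitoylglycine it stood at 55.1, 65.1, 65.1, 52.6 and 54.5 CPM. DMSO library 3 was the lowest of all 10 and DMSO library 2 the highest, so the DMSO range enclosed every palmitoylglycine value. The estimate was 0.00 ± 0.15 (log2 fold change, SE, edgeR adjusted p = 0.997) and became −0.12 without DMSO library 3.

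Actc1, cardiac alpha-actin, the main sarcomeric actin of the heart, was the gene with the lowest estimate. DMSO libraries 1 to 5 contained 9054, 9892, 7701, 4619 and 5023 CPM. Palmitoylglycine libraries 1 to 5 contained 6784, 7561, 8106, 4861 and 4750 CPM. In libraries 1 to 3, palmitoylglycine libraries 1 and 2 were below all DMSO values and library 3 was not, and libraries 4 and 5 overlapped. Over all libraries the log2 fold change was −0.18 ± 0.24 (SE, edgeR adjusted p = 0.855). It was −0.04 without DMSO library 2 and −0.30 without DMSO library 4. Acta1 and Actc1 encode nearly identical proteins, as do Myh6 and Myh7 over long stretches, and how the counting treated reads that match both is unknown here, so their separate levels are uncertain.

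Tnnt2, cardiac troponin T, anchors the troponin complex to tropomyosin and is a standard marker of cardiomyocytes. The DMSO values were 2703, 2439, 2664, 1627 and 1714 CPM, in the order 1 to 5. The palmitoylglycine values were 2651, 2544, 2358, 1730 and 1721 CPM. The treatments overlapped in libraries 1 to 3, and in libraries 4 and 5 both palmitoylglycine values lay just above both DMSO values. The difference was −0.02 ± 0.18 (log2 fold change, SE, edgeR adjusted p = 0.985), and its direction depended on which library was left out. Every library held at least 101824 reads of Tnnt2, 213320 of Myh6 and 281101 of Actc1, so defining transcripts of heart muscle were abundant throughout. Markers of fibroblasts, vessel cells and leukocytes were not analysed here, since the table's identifiers could not be paired with their symbols, and the part of such cells in these results was not tested.

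With a term for the library subsets in the same edgeR test, the estimates moved little and their errors fell for 6 of the 7 genes. The fitted log2 fold changes were 0.13 for Nppa (standard error 0.05), 0.16 for Nppb (0.05) and 0.22 for Myh7 (0.06). These correspond to levels 9.52%, 11.5% and 16.1% above DMSO. The adjusted p was 0.191 for Nppa, 0.137 for Nppb and 0.134 for Myh7, so 0 of the 7 genes passed in this fit (0% of all genes tested). At an unadjusted p under 0.05 these 3 genes were higher with palmitoylglycine, as were 9.66% of all genes tested. Myh6 had an estimate of 0.14, close to that of Nppa, but with a standard error of 0.11 (edgeR adjusted p = 0.492). It was 0.07 without palmitoylglycine library 4 and 0.24 without palmitoylglycine library 5. Actc1 had an estimate of −0.15 with a standard error of 0.08 (edgeR adjusted p = 0.354), and Tnnt2 one of −0.01 with a standard error of 0.05 (edgeR adjusted p = 0.933). For Acta1 the estimate was 0.00 and the standard error 0.15, as without the term.

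DESeq2 with the same subset term did call Nppb (adjusted p = 0.0486) and Myh7 (adjusted p = 0.0297) higher, where it called 3.06% of all genes higher. It did not call Nppa (adjusted p = 0.0734). Limma-voom with the subset term called 0 of the 7 (0% of all genes tested), with adjusted p of 0.0905 for Nppb and 0.0826 for Myh7. DESeq2 with libraries paired by number in place of the subset term called neither, with adjusted p of 0.168 for Nppb and 0.0745 for Myh7. The call on Nppb and Myh7 therefore depended on the tool and on the design. All 7 unadjusted 95% intervals of the edgeR fit with the subset term stayed within 1.5-fold of DMSO, upward and downward, as did 71.3% of those of all genes. The upper end of the interval was 1.18-fold for Nppa, 1.20-fold for Nppb and 1.28-fold for Myh7, and the lower end for Actc1 was 0.793-fold. In edgeR without the subset term, only 4 of the 7 intervals stayed within 1.5-fold, as did 64.9% of those of all genes. There the upper end was 1.80-fold for Myh7 and 1.74-fold for Nppb, and the lower end for Actc1 was 0.612-fold.

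**Figure D2:**
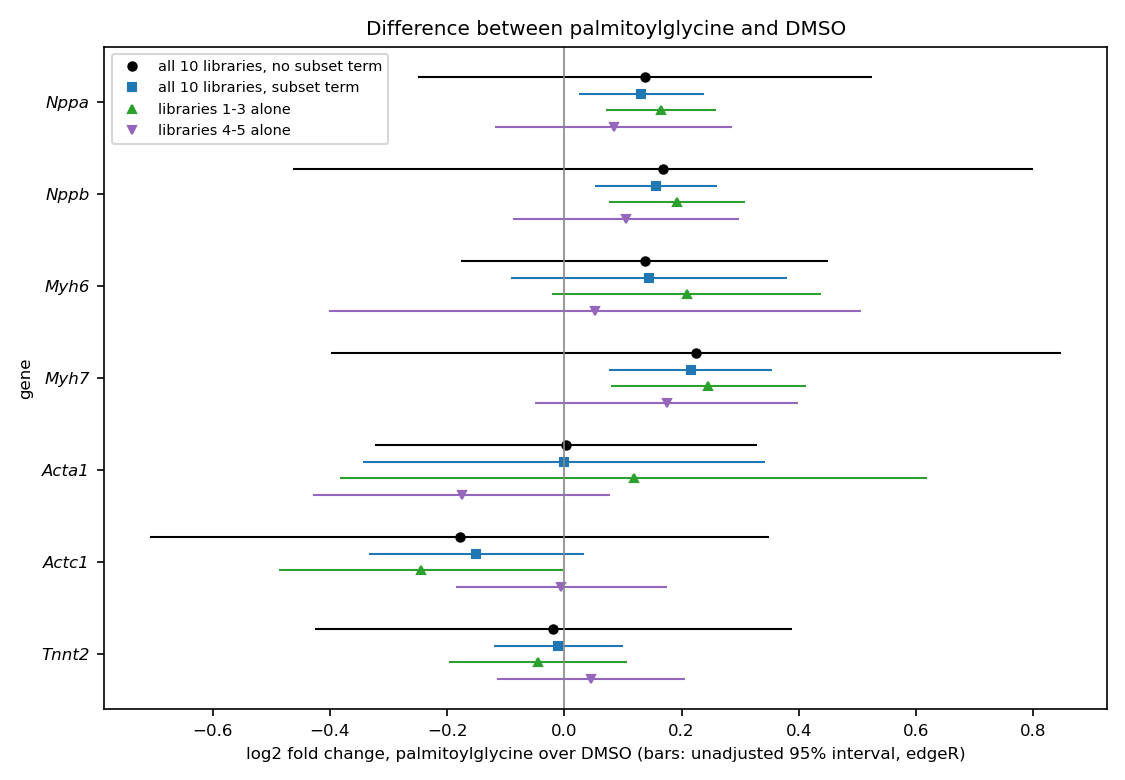
Log2 fold change of each gene, palmitoylglycine over DMSO (horizontal axis, with unadjusted 95% intervals from edgeR), in 4 fits: all libraries without (black) and with (blue) a subset term, libraries 1 to 3 alone (green) and libraries 4 and 5 alone (purple). The intervals of Nppa, Nppb and Myh7 with the subset term and in libraries 1 to 3 lie above 0. That of Actc1 in libraries 1 to 3 lies below 0 (−0.488 to −0.0024). None of these genes passed the adjusted threshold of 0.05 in any of the 4 fits.

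Each subset was also fitted alone. In libraries 1 to 3, palmitoylglycine lay above DMSO without overlap for Nppa, Nppb and Myh7, 3 of the 7 genes, and for 16.0% of all genes tested. It lay below DMSO without overlap for 0 of the 7 and for 15.6% of all. The edgeR log2 fold changes there were 0.16 for Nppa (adjusted p = 0.0628), 0.19 for Nppb (adjusted p = 0.0715), 0.25 for Myh7 (adjusted p = 0.0931) and −0.24 for Actc1 (adjusted p = 0.197). Myh6, at 0.21 (edgeR adjusted p = 0.239), had a higher estimate there than Nppa and Nppb, with a wider error and with overlap. Acta1 stood at 0.12 (edgeR adjusted p = 0.767) and Tnnt2 at −0.04 (edgeR adjusted p = 0.706). None of the 7 passed, while 4.55% of all genes did. In libraries 4 and 5 the values were 0.08 for Nppa, 0.11 for Nppb, 0.17 for Myh7, 0.05 for Myh6, −0.17 for Acta1, −0.01 for Actc1 and 0.05 for Tnnt2, each with an edgeR adjusted p of 1.00, and 0 of the 7 passed (0.0325% of all genes). Myh7 and Tnnt2 lay above DMSO without overlap in that subset (15.7% of all genes) and Acta1 below (16.6% of all genes).

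Whether the response differed between the subsets was tested as an interaction in edgeR, and 0 of the 7 genes passed (0.0587% of all genes did). The lowest adjusted p was that of Actc1, whose fold change was higher in libraries 4 and 5 by 0.24 on the log2 scale, with a standard error of 0.15 (edgeR adjusted p = 0.601). Acta1 had the largest difference between the subsets, −0.29, and also the largest standard error, 0.30 (edgeR adjusted p = 0.769). For Myh6 the difference was −0.15 with a standard error of 0.22, and for Tnnt2 it was 0.09 with a standard error of 0.10 (edgeR adjusted p of 0.838 and 0.761). For Nppa, Nppb and Myh7 the response in libraries 4 and 5 differed by −0.08, −0.08 and −0.07, each with a standard error of at least 0.08 (edgeR adjusted p of 0.778, 0.77 and 0.876). A smaller response of these 3 genes in libraries 4 and 5 was therefore not shown.

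**Figure D3:**
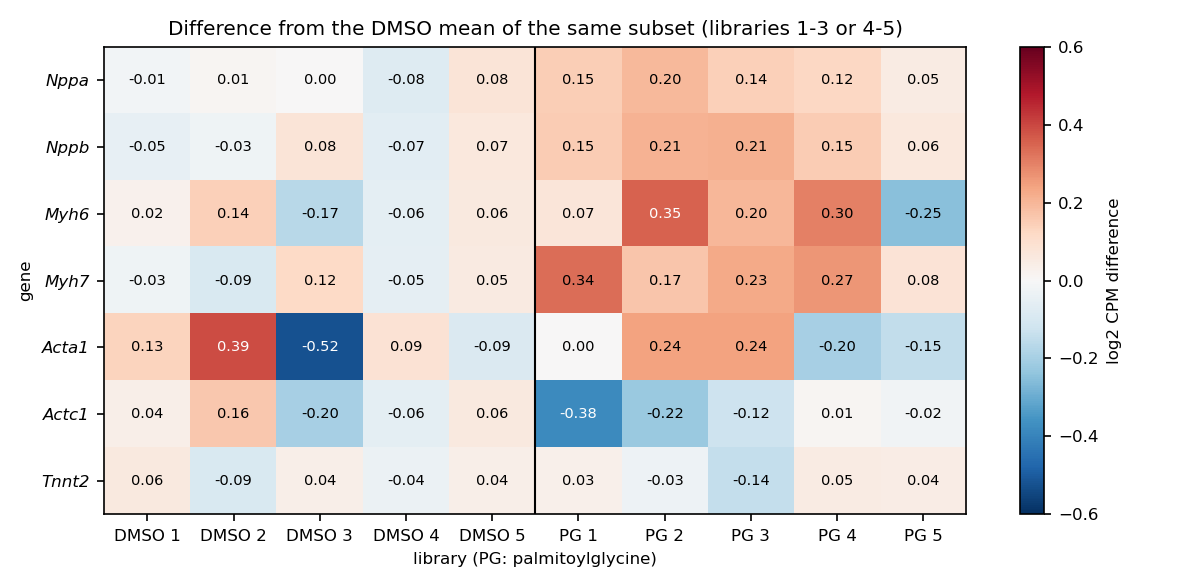
Difference in log2 CPM of each library (columns) from the DMSO mean of its own subset, for each gene (rows), with red above and blue below that mean. Nppa, Nppb and Myh7 are above it in all 5 palmitoylglycine libraries, by 0.05 to 0.20, 0.06 to 0.21 and 0.08 to 0.34, while Actc1 is below it in 4 of 5.

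Set against the DMSO mean of the same subset, all 5 palmitoylglycine libraries were higher for Nppa, Nppb and Myh7, 3 of the 7 genes, and for 10.7% of all genes tested. Myh6 was higher in 4 of 5, with palmitoylglycine library 5 at −0.25 on the log2 scale, and Acta1 and Tnnt2 in 3 of 5. Actc1 was higher in 1 of 5, by 0.01. Palmitoylglycine library 5 had the smallest excess of the 5 for Nppa, Nppb and Myh7. Palmitoylglycine library 1 had the largest excess of Myh7, 0.34, and the largest deficit of Actc1, −0.38.

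For Nppa, Nppb, Myh7, Actc1 and Tnnt2, most of the spread among the 10 libraries followed the library subsets. The subsets were read from these counts, so the values are descriptions without a test. Nppb averaged 2164 ± 171 (SD, n = 6) CPM in libraries 1 to 3 and 1106 ± 67.7 (SD, n = 4) CPM in libraries 4 and 5, a ratio of 1.96. The same ratio was 1.92 for Myh7, 1.70 for Actc1, 1.51 for Tnnt2 and 1.47 for Nppa, and none of these 5 genes overlapped between the subsets (21.3% of all genes did not). Acta1 differed least, with a ratio of 1.04. Myh6 went the other way, at 3985 ± 478 (SD, n = 6) CPM in libraries 1 to 3 and 4871 ± 790 (SD, n = 4) CPM in libraries 4 and 5, with overlap. In bulk RNA, fewer cardiomyocytes and less RNA of these genes per cell cannot be told apart.

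Shares of reads within pairs of related genes do not depend on the scaling between libraries. They are shares of reads, not of molecules, because gene lengths were not used here. Myh7 took 70.7% ± 9.70 (SD, n = 5) of the reads of Myh6 plus Myh7 with palmitoylglycine and 69.5% ± 10.6 (SD, n = 5) with DMSO. In libraries 1 to 3 the means were 77.5% and 77.0%, and in libraries 4 and 5 they were 60.6% and 58.2%. The treatments overlapped in both subsets, since palmitoylglycine libraries 4 and 5 stood at 57.5% and 63.6% on either side of the DMSO values of 58.2% and 58.1%. The difference between the treatments, 1.25 percentage points, ranged from −1.60 without DMSO library 5 to 4.54 without palmitoylglycine library 4, and was below 0 in 4 of the 10 omissions. Over both treatments the share was 74.1% to 80.4% in libraries 1 to 3 and 57.5% to 63.6% in libraries 4 and 5.

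Acta1 took 0.932% ± 0.159 (SD, n = 5) of the reads of Acta1 plus Actc1 with palmitoylglycine and 0.874% ± 0.359 (SD, n = 5) with DMSO. In libraries 1 to 3 the palmitoylglycine values of 0.806%, 0.853% and 0.797% all exceeded the DMSO values of 0.662%, 0.725% and 0.495%. For levels of single genes, not shares, 16.0% of all genes tested showed that order. In libraries 4 and 5 the order was not the same, with 1.07% and 1.13% against 1.37% and 1.12%. The difference over all libraries, 0.058 percentage points, was −0.036 without DMSO library 3 and 0.18 without DMSO library 4. Nppb took 10.5% ± 1.45 (SD, n = 5) of the reads of Nppa plus Nppb with palmitoylglycine and 10.3% ± 1.43 (SD, n = 5) with DMSO. This share was 11.1% to 11.9% in libraries 1 to 3 and 8.77% to 8.99% in libraries 4 and 5 under both treatments. Its difference between the treatments, 0.17 percentage points, was below 0 in 5 of 10 omissions, with a range from −0.23 without DMSO library 5 to 0.57 without palmitoylglycine library 5. Together the 7 genes took 4.17% ± 0.813 (SD, n = 5) of all reads with palmitoylglycine and 3.93% ± 0.766 (SD, n = 5) with DMSO. In libraries 1 to 3 the shares were 4.76% ± 0.0216 (SD, n = 3) and 4.48% ± 0.0811 (SD, n = 3), without overlap. Palmitoylglycine lay above DMSO in this way for 16.0% of all single genes tested. In libraries 4 and 5 the palmitoylglycine shares of 3.44% and 3.14% overlapped the DMSO shares of 2.97% and 3.22%. The difference over all libraries, 0.25 percentage points, was 0.0073 without DMSO library 4 and 0.50 without palmitoylglycine library 5.

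**Figure D4:**
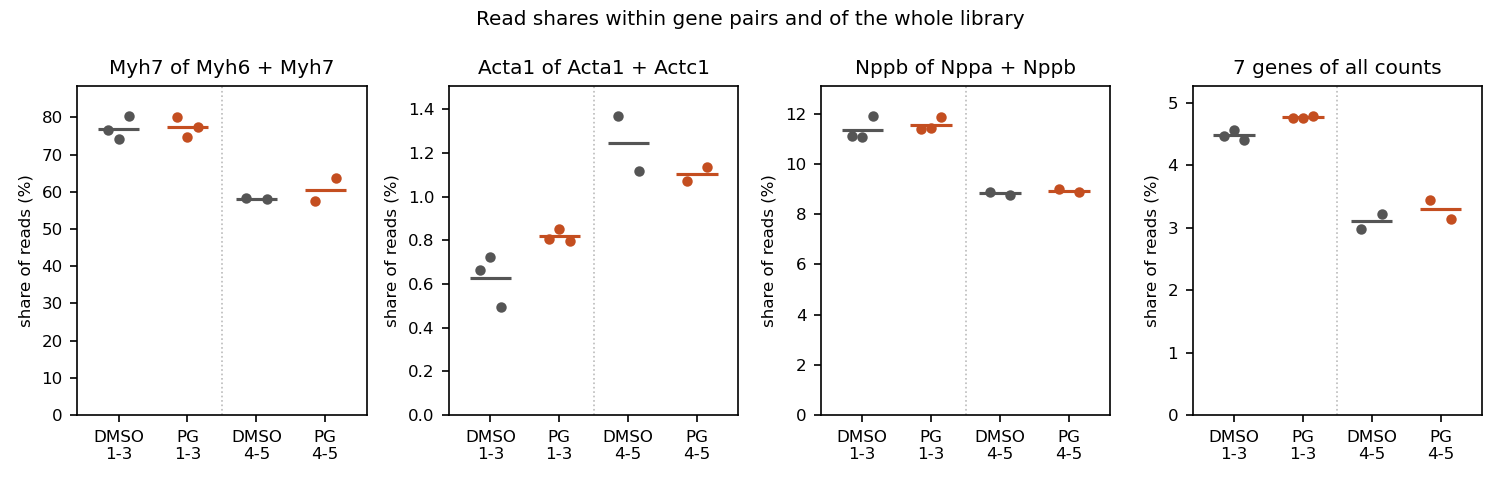
Share of reads in percent (vertical axes, linear from 0) for Myh7 within the myosin pair, Acta1 within the actin pair, Nppb within the natriuretic pair, and the 7 genes within the library, by treatment and library numbers. Points are libraries and bars are means; the Myh7 share lies between 74.1% and 80.4% in libraries 1 to 3 and between 57.5% and 63.6% in libraries 4 and 5 under both treatments.

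The genes were also compared for how they varied from library to library once the mean of each treatment within each subset was taken away, which leaves 6 independent deviations among 10 libraries. Pearson's r over the 21 pairs ranged from −0.79 to 0.83 with a median of 0.22, as a description without a test. Over all 10 libraries the highest value was that of Acta1 and Actc1 (r = 0.83, Spearman's rho = 0.64), and it was 0.47 without the 2 libraries farthest from the median of Acta1. Among DMSO libraries 1 to 3 both actins were highest in library 2 and lowest in library 3. Nppa and Nppb followed (r = 0.72, rho = 0.68, and 0.50 without 2 libraries). The lowest value was that of Myh7 and Acta1 (r = −0.79, rho = −0.70, and −0.75 without 2 libraries), with Myh7 highest among the DMSO libraries in library 3, where Acta1 was lowest. The order of the pairs changed when libraries were left out. The means taken away still came from all 10 libraries, so the 2 left out kept some influence on these values. When each pair was computed without the 2 libraries farthest from the median of its first gene, Nppa and Myh6 had the highest value (0.85, from 0.60), followed by Myh6 and Actc1 (0.83, from 0.57). Myh6 and Myh7 then had the lowest (−0.79, from 0.01). Libraries share the scaling factor and the depth between genes, and the actins may share reads.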

How the data were processed

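Messenger RNA of 10 libraries was captured on oligo(dT) beads, fragmented and primed with random hexamers, per the labels' protocols. The deposited table holds the authors' raw counts of reads per gene in 1 column per library, per the file headers. Reads were trimmed with Trimmomatic and the build was mRatBN7.2, per the submitters' processing notes. The aligner, counter, annotation release and strand setting were not given in the sources used here. Columns were matched to samples through the short names in the descriptions, with 0 unmatched. No library repeated another of its group: over 20 pairs within groups the chi-square per gene averaged 31.1 to 254, where sampling noise gives about 1. Pairs across the groups were not compared in this way.

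Groups were compared with the quasi-likelihood test of edgeR (4.0.16, in R 4.3.3) with TMM factors and the group as the only term, on the 15321 genes that passed filterByExpr (263 removed), adjusted over all genes tested. Standard errors came from the F statistic, and intervals are unadjusted 95% intervals. Scripts were tested on simulated data. The simulated libraries held no division into subsets, so that check does not cover this feature of the real libraries. Alternatives used DESeq2 (1.42.0), limma-voom with quality weights (limma 3.58.1), other scalings and filters, a replicate block, a subset term and left-out libraries. The named genes are the 7 of the list. The members, lists, subsets and alternatives were chosen with earlier results of these data known. Promoter sequences are from RefSeq (GRCr8), matched by symbol for 7 of 7 genes. None of the 15584 identifiers matched the reference table, so the other gene lists and marker lists were not evaluated, and no coordinates of the counted genes are given.

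The labels number both groups from 1 to 5. After group means were removed, the libraries with equal numbers correlated at 0.124 to 0.362, all above 0.1, so the numbers were used as a pairing in an alternative fit. With the subset means also removed the correlations ranged from −0.0675 to −0.0161, so a pairing by number beyond the subsets was not shown.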

Additional observations from a re-analysis of the deposited data

How the results depend on the processing

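No gene of the 7 was called by edgeR with a minimum mean of 5 CPM, no filter, total counts alone, size factors by the median of ratios, scaling without the 7 genes, the replicate block, the subset term, either subset alone or any single library left out, nor by DESeq2 or limma-voom on the same design. The exception was DESeq2 with a subset term, added after seeing the data, which called 2 of the 7. With the replicate block (pairing by number) the edgeR log2 fold changes were 0.13 for Nppa, 0.16 for Nppb and 0.22 for Myh7, with adjusted p of 0.393, 0.275 and 0.273, and no call among the 7 changed. Over all genes the count of 0 in edgeR was 134 in DESeq2, 907 in DESeq2 with a subset term, 454 in DESeq2 with the replicate block, 5 in libraries 4 and 5 by themselves, 697 in libraries 1 to 3 by themselves, and between 0 and 1 with single libraries left out (1 when DMSO library 2 or palmitoylglycine library 1 was omitted). The cause was not tested.

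Nppa, Nppb, Myh6 and Myh7 had positive estimates and Actc1 negative ones in all 24 alternatives. Without DMSO library 4 the estimates of Nppa, Nppb and Myh7 were 0.05, 0.04 and 0.10, and without palmitoylglycine library 5 they were 0.23, 0.31 and 0.36. That of Myh6 was 0.03 without palmitoylglycine library 4 and 0.21 without DMSO library 5. Acta1 turned to −0.012 with total counts alone and to −0.17 in libraries 4 and 5 alone, and ranged from −0.12 to 0.093 with single libraries left out (−0.14 to 0.097 with the subset term). Tnnt2 turned to 0.025 in limma-voom and to 0.046 in libraries 4 and 5 alone, and ranged from −0.11 to 0.060 with single libraries left out (−0.030 to 0.020 with the subset term). In the fit with subsets, single omissions gave Nppa between 0.12 and 0.16, Nppb between 0.14 and 0.18 and Myh7 between 0.19 and 0.25, with adjusted p no lower than 0.108, 0.0787 and 0.0679. The differences in read shares between the treatments moved by less than 1 SD in both subsets alone and with any library left out. That SD, taken within treatments, includes the spread between the subsets, so it is a wide bound and does not show stability. The differences of the myosin and natriuretic pairs and of Acta1 in the actin pair changed sign with single omissions. The planned division by coding length was not run, since no coding lengths were at hand. Acta1 had the fewest reads, 2488 to 5667 per library, with a counting error of at most 2.00%. Its SD among the 5 DMSO libraries was 21.6% of the mean, so counting error was a small part of its spread.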
